A study of Mus musculus with 10 samples.

Results

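The transcripts of the mouse mitochondrial genome were examined in RNA of the cochlea, the hearing organ of the inner ear. They were taken as every gene whose name begins with mt-, which gave 37 of the 54532 genes in the count files. These are 13 protein genes, 2 rRNA genes and 22 tRNA genes, and all 37 lie on the mitochondrial chromosome. By annotated strand, 28 are on the plus strand (12 protein, 2 rRNA and 14 tRNA genes) and 9 on the minus strand (mt-Nd6 and 8 tRNA genes).

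All mice were mtKeima transgenic mice, 12 months old, and carried a mitochondria-targeted Keima fluorescent reporter in both groups. Their background is mixed, and the study's genotyping found no age-related hearing loss allele of cadherin 23 and no Nnt mutation. The 5 NR-treated mice drank water with nicotinamide riboside (NR), a precursor of NAD+, at 7 mg/ml (24 mM) from 2 to 12 months of age, that is for 10 months, whereas the 5 non-treated mice were kept on regular water. The study asked what long-term NR does to the ageing cochlea, and the comparison here is whether transcripts of the mitochondrial genome differed between these groups. The labels call the mice female and the study's methods call them male. All 10 libraries held 1235 to 1928 counts of Ddx3y, a Y-linked gene, and 2 to 8 counts of Xist, the RNA of the inactive X, which goes against the female label.

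The mitochondrial genome is a small circle in many copies per cell, and its genes encode core subunits of the respiratory complexes together with the rRNAs and tRNAs of the mitochondrial ribosome. Both strands are transcribed into long precursors, and the tRNAs that punctuate them are cut out to release the mRNAs and rRNAs. Most mitochondrial mRNAs carry short poly(A) tails, and the cochlea relies on the respiratory chain because the stria vascularis pumps ions continuously.

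The libraries held 17060379 to 24419230 counts on genes, and all 10 tissue genes of the cochlea (Coch, Otos, Tecta and others) were detected in every library. Their summed level was 3215 to 4853 CPM in NR-treated and 3473 to 6321 CPM in non-treated mice, where CPM is the count scaled to a library of 1000000 effective counts. Skeletal muscle genes summed to 340 to 1527 CPM in NR-treated and 321 to 458 CPM in non-treated mice, adipocyte genes to 104 to 311 against 47.6 to 99.4 CPM, and bone genes to 567 to 2195 against 311 to 966 CPM. Of the tested genes, 9 of 11 adipocyte, 10 of 15 muscle and 3 of 9 bone genes were higher with NR at an unadjusted p of 0.05, and 7 of 10 cochlear and 5 of 8 stria marginal cell genes were lower. Over all genes tested, 4.83% were higher and 4.88% lower. Of the other cell type lists, hair cell and erythroid genes (8 each) had 0 calls. Spiral ganglion neuron genes (1 of 8) and neutrophil genes (1 of 9) had a higher call, and B and plasma cell genes (1 of 11) a lower one. No marker in these lists was at 0 in all libraries. Non-treated replicates 3 and 4 held more hair cell RNA (405 and 438 CPM, against 154 to 272 CPM in the others), and neutrophil genes were at 1486 CPM in NR replicate 2 against 4209 to 5008 CPM in the other NR-treated mice and 1475 to 5871 CPM in the non-treated mice. The part of this tissue makeup in the mitochondrial values below was not tested. In RNA of a whole organ, fewer cells of a type and less RNA per cell cannot be told apart.

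A stretch of the nuclear genome shares sequence with the mitochondrial genes and bears on how their counts are read. In GENCODE M21 (mm10), 7 pseudogenes on the minus strand of chromosome 1, between 24611535 and 24616197, match mitochondrial bases 6381 to 11042, an interval of 4662 bases. The matches are Gm29216 with mt-Co1 (492 of 1545 bases), Gm28661 with mt-Co2 (681 of 684), Gm10925 with mt-Atp6 (678 of 681), Gm28437 with mt-Co3 (783 of 784), Gm28438 with mt-Nd3 (345 of 348), Gm10222 with mt-Nd4l (294 of 297) and Gm28439 with mt-Nd4 (876 of 1378). Each match was extended without gaps to the first base of the annotated copy. Of the 7 copies, 5 have no difference from the gene over the match, Gm28438 has 1 and Gm29216 has 6. These are reference sequences, and the sequences of these mice, whose background is mixed, were not examined. All 6 differences of Gm29216 lie near its first base, so the first bases of its match and the interval start at 6381 rest on this extension. The stretch between the mt-Co2 and mt-Atp6 matches, where mt-Atp8 lies, is 233 bases long on both chromosomes. Thus 6 protein genes lie within the copied interval (mt-Co2, mt-Atp8, mt-Atp6, mt-Co3, mt-Nd3, mt-Nd4l) with 5 tRNA genes, mt-Co1 and mt-Nd4 lie partly in it, and 7 protein and rRNA genes lie outside it. Sequence between the annotated copies was not compared, so mt-Atp8 and the 5 tRNA genes are placed in the interval mainly by their position.

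The pairs that follow show how close gene and copy are, with transcripts from GENCODE M21 written 5′ to 3′. In mt-Nd4l (chrMT:9877-10173, plus strand) capitals mark the bases beyond the match, and Gm10222 (chr1:24612407-24612700, minus strand) has no capitals because every base of it is in the gene:
mt-Nd4l: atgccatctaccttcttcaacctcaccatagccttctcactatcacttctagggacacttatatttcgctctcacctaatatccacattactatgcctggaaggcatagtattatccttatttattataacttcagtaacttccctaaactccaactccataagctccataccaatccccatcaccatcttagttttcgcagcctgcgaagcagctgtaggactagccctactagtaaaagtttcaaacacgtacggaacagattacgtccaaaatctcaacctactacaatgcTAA
Gm10222: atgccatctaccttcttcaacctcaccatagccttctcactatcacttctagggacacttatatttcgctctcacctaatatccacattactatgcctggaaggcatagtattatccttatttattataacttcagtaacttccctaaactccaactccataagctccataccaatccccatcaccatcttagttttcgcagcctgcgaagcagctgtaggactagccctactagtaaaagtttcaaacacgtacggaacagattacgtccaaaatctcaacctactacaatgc

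In the first bases of mt-Nd3 (chrMT:9459-9518) and Gm28438 (chr1:24613060-24613119), capitals mark the bases that differ. They do the same in the part of mt-Co1 (chrMT:6381-6440) that was set against the start of Gm29216 (chr1:24616138-24616197). Counted from 1 at the 5′ end of the mitochondrial gene, with its base first, the differences are T3C in mt-Nd3 and T1056A, C1057T, A1059G, A1060G, C1062A and A1066T in mt-Co1:
mt-Nd3 start: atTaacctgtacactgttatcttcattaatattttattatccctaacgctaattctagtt
Gm28438 start: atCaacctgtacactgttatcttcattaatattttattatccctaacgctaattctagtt
mt-Co1 part: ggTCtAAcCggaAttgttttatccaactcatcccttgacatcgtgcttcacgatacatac
Gm29216 start: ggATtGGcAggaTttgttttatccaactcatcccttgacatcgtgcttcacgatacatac

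Along the mitochondrial genome, levels per length of the protein and rRNA genes were lower within this interval than on either side of it. The highest level per length was that of mt-Co1, the catalytic subunit of complex IV, with 6885 ± 903 CPM per kb of gene (SD, n = 10 libraries of both groups). It was followed by mt-Cytb of complex III (4925 ± 511), mt-Nd1 (4357 ± 545), mt-Nd2 (2023 ± 191), mt-Nd4 (1922 ± 194), mt-Nd6 (1740 ± 277) and mt-Nd5 (1547 ± 240), all 5 of the latter being subunits of complex I. The rRNAs of the small and the large ribosomal subunit came next at 384 ± 70.4 CPM per kb for mt-Rnr1 and 384 ± 73.7 for mt-Rnr2. The 6 protein genes within the copied interval were below them all, from mt-Co2 of complex IV (76.8 ± 13.3 CPM per kb) through mt-Co3 (44.1 ± 6.27), mt-Atp6 of the ATP synthase (43.6 ± 7.03), mt-Nd4l (15.7 ± 3.51) and mt-Nd3 (10.5 ± 1.65) to mt-Atp8 (5.86 ± 1.91).

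Most neighbours in this order kept their places in all 10 libraries. The exceptions were mt-Nd2 above mt-Nd4 and mt-Nd6 above mt-Nd5 in 9 of 10 libraries, mt-Rnr1 above mt-Rnr2 in 6 of 10, and mt-Co3 above mt-Atp6 in 5 of 10, so that the rRNA pair and the mt-Co3 and mt-Atp6 pair were not ordered. The mean of the lowest of the 5 protein genes outside the interval, mt-Nd5, was 20.1-fold that of the highest within it, mt-Co2, and that of the lowest rRNA gene was 4.99-fold it. The 11 genes within the interval held 0.373% to 0.551% of the mitochondrial counts of a library. In its default mode featureCounts leaves out reads that align to several places and reads that overlap several genes. How far this sets the low values within the interval was not tested, and these values are therefore uncertain as levels of mRNA. The same limit applies to mt-Nd4 and mt-Co1, of which 876 of 1378 and 492 of 1545 bases match a copy. Their levels over the full gene length, and the place of mt-Nd4 in the order, are therefore uncertain too.

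**Figure D1:**
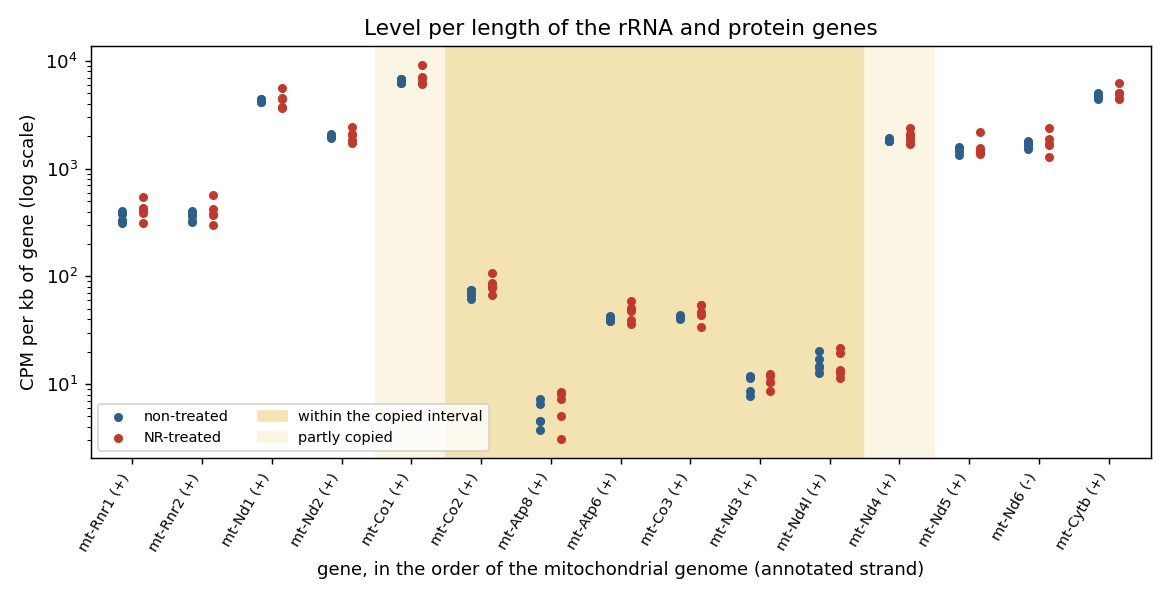
CPM per kb of gene (log axis) of the 15 rRNA and protein genes in the order of the mitochondrial genome, 1 point per mouse, with the copied interval shaded. The 6 genes within the interval have means of 5.86 to 76.8 CPM per kb, and the 7 outside it means of 384 to 4925.

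The copies on chromosome 1 also took counts, and the 5 copies of genes within the interval took as many as their genes or more in most libraries. Gm10925 had 1.20 to 1.46 times the counts of mt-Atp6, Gm28437 1.02 to 1.19 times those of mt-Co3 and Gm28438 4.05 to 6.20 times those of mt-Nd3, each above its gene in 10 of 10 libraries. Gm10222 was above mt-Nd4l in 9 libraries (0.812 to 1.76 times) and Gm28661 above mt-Co2 in 8 (0.630 to 1.40 times). For the genes copied only in part, the counts on the copy were small beside those on the gene, at 0.00209 to 0.00353 times mt-Co1 for Gm29216 and 0.00374 to 0.00621 times mt-Nd4 for Gm28439. Reads of a gene and of a copy with the same bases cannot be told apart in these counts. Whether these mice carry the reference base where mt-Nd3 and Gm28438 differ was not tested.

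**Figure D2:**
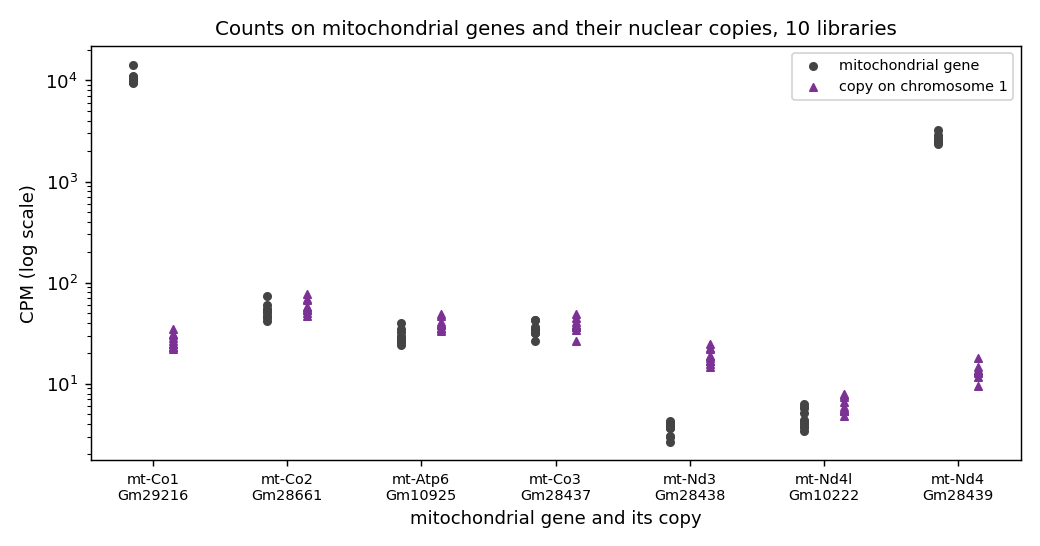
CPM (log axis) of 7 mitochondrial genes (circles) and of their copies on chromosome 1 (triangles), 1 point for each of the 10 mice. Gm28438 lies above mt-Nd3 in every library, whereas the copies of mt-Co1 and mt-Nd4 lie far below their genes.

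The 37 genes together took 2.76%, 3.96%, 3.12%, 3.09% and 2.74% of all counts in NR replicates 1 to 5, and 3.0%, 2.66%, 2.87%, 2.91% and 2.99% in non-treated replicates 1 to 5. NR replicate 2 stood above the other 9 mice, NR replicates 2, 3 and 4 were above every non-treated mouse, and NR replicates 1 and 5 were inside the non-treated range. The means were 3.13% ± 0.495 with NR and 2.89% ± 0.139 without (SD, n = 5 each), a difference of 0.249 percentage points that is smaller than the SD of the NR-treated group. Without NR replicate 2 the difference was 0.0424 percentage points. As a sum over chosen genes, the share was given no test.

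By class, the protein genes took 3.02% ± 0.472 of all counts with NR and 2.79% ± 0.130 without, the rRNA genes 0.105% ± 0.0231 and 0.0897% ± 0.0102, and the tRNA genes 0.00843% ± 0.00206 and 0.00686% ± 0.000762 (SD, n = 5 each). By annotated strand, the plus strand took 3.03% ± 0.475 with NR and 2.79% ± 0.137 without, and the minus strand 0.101% ± 0.0219 and 0.0935% ± 0.00570. In each of these classes the groups overlapped, and NR replicate 2 was the highest of the 10 mice.

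Of the mitochondrial counts, protein genes made up 96.1% to 97.0% in the 10 libraries, rRNA genes 2.77% to 3.62% and tRNA genes 0.206% to 0.298%. The study's methods describe selection of poly(A) RNA, and of 12 other RNAs without poly(A) tails that the files list, 5 were at 0 in every library. Among these 12, Rn7sk had 14 to 33 counts in 9 libraries and 181 in NR replicate 3, whose share of counts on mitochondrial rRNA was 0.109%, the second highest of the 10. NR replicate 2, with the highest such share (0.141%), had 16 counts of Rn7sk. mt-Co1 alone held 34.4% to 36.8%, and mt-Co1, mt-Cytb and mt-Nd1 together 66.8% to 68.7%. The minus strand held 2.71% to 3.56%, of which mt-Nd6, its single protein gene, was 91.6% to 93.7%. Because the counting did not use strand, a gene's strand is that of its annotation and not that of its reads.

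**Figure D3:**
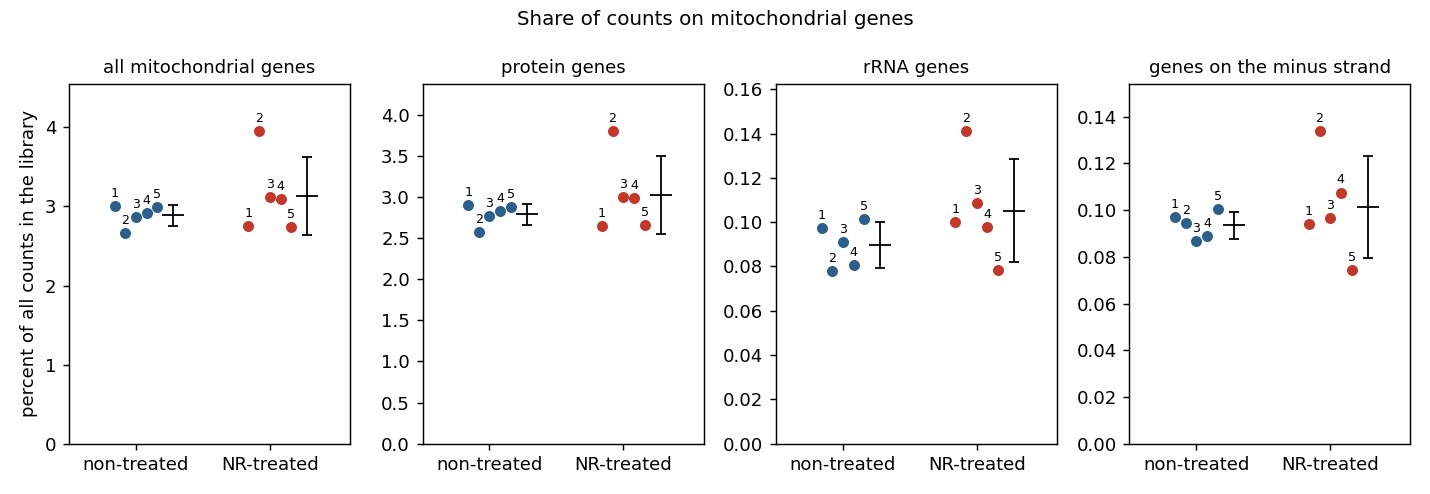
Percent of all counts in a library on mitochondrial genes, for all 37 genes, the protein genes, the rRNA genes and the genes on the minus strand, with replicate numbers at the points, means as short lines and SD as bars (n = 5 each). NR replicate 2 is the highest point in each panel, and the groups overlap in all 4.

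Of the 37 genes, 24 passed the filter on low counts (13 protein, 2 rRNA and 9 tRNA genes) and were tested with all 18329 genes that passed it. With edgeR's quasi-likelihood test, 2 of the 24 were higher in NR-treated mice at an unadjusted p of 0.05, against 4.83% of all genes tested, and 0 were lower, against 4.88%. After Benjamini-Hochberg adjustment 0 of the 24 were called with edgeR or with DESeq2, and 0 of all genes were called with edgeR. The study, which used DESeq2, lists top changed genes at an adjusted p of at most 0.05, among them Cidec, Plin1 and Pck1. The 0 over all genes therefore holds for the edgeR fit here. The smallest adjusted p among the 24 was 0.434. In 0 of the 24 did every NR-treated mouse lie above every non-treated mouse, against 0.769% of all genes tested, and in 0 did every one lie below, against 0.867%. DESeq2 also called 2 mitochondrial genes higher at an unadjusted p of 0.05, against 3.5% of the genes it tested.

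The log2 fold change was above 0 for 21 of the 24 (12 of 13 protein genes, both rRNA genes and 7 of 9 tRNA genes), with a median of 0.11 beside -0.01 for all genes tested. This tally rested on NR replicate 2: without it 13 of the 24 were above 0 (8 of 13 protein genes, both rRNA genes and 3 of 9 tRNA genes), with a median of 0.01 beside 0.00 for all genes tested, whereas it was 18 to 23 of 24 when any other single mouse was left out. The genes share their libraries and are not independent of each other: NR replicate 2 was the highest of the 10 mice in 16 of the 24, and in 7 of the 7 protein and rRNA genes outside the copied interval. The median was 0.10 for the protein genes, 0.21 for the rRNA genes and 0.06 for the tRNA genes. It was 0.17 for the 6 genes within the copied interval and 0.08 for the 7 outside it, with standard errors of single genes between 0.09 and 0.37 among the 24.

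**Figure D4:**
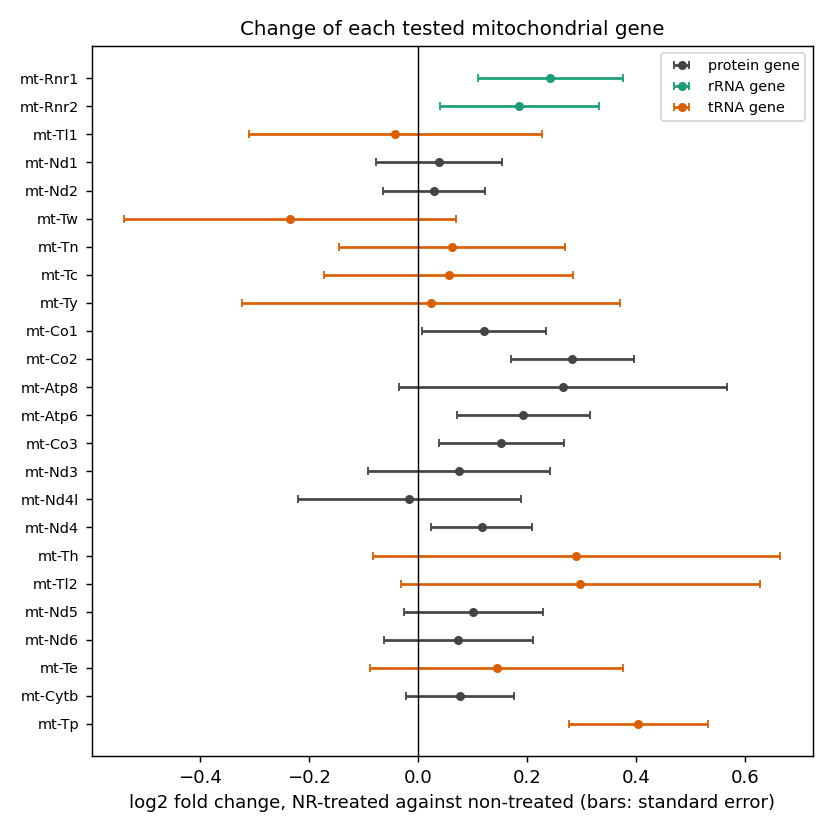
Log2 fold change of NR-treated against non-treated mice (x axis) for the 24 tested mitochondrial genes in genome order, with standard errors as bars and colours for gene classes. Values run from -0.24 (mt-Tw) to 0.40 (mt-Tp), and 21 of 24 are above 0, beside 13 of 24 without NR replicate 2.

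The gene with the smallest p was mt-Tp, the tRNA for proline, annotated on the minus strand at chrMT:15356-15422 next to the noncoding control region. Its level was 44.1, 71.0, 52.3, 55.6 and 42.1 CPM in NR replicates 1 to 5 and 43.1, 40.1, 37.6, 37.5 and 42.3 CPM in non-treated replicates 1 to 5. NR replicates 1 to 4 were above every non-treated mouse, and NR replicate 5 was inside the non-treated range. The log2 fold change was 0.40 (SE 0.13, unadjusted p = 0.00903, adjusted p = 0.434 by edgeR with Benjamini-Hochberg adjustment). Its unadjusted p stayed between 0.00241 and 0.0201 when single mice were left out, and the log2 fold change was 0.28 without NR replicate 2. The RNA was selected for poly(A) tails, which mature tRNAs lack, and the counting did not use strand. These counts therefore cannot be read as the level of the mature tRNA.

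mt-Co2, a complex IV subunit that receives electrons from cytochrome c, was the other gene at an unadjusted p of 0.05. Its level was 73.8, 55.3, 46.0, 53.4 and 59.8 CPM in NR replicates 1 to 5 and 51.0, 46.7, 42.2, 45.8 and 51.2 CPM in non-treated replicates 1 to 5. NR replicates 1, 2, 4 and 5 were above every non-treated mouse. The log2 fold change was 0.28 (SE 0.11, unadjusted p = 0.0292, adjusted p = 0.476 by edgeR with Benjamini-Hochberg adjustment). The unadjusted p rose to 0.0557 without NR replicate 1, to 0.0581 without non-treated replicate 3 and to 0.0504 without non-treated replicate 4.

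Gm28661, the nuclear copy of mt-Co2, ordered the mice differently. It was at 46.5, 77.3, 53.5, 66.9 and 68.7 CPM in NR replicates 1 to 5 and at 49.8, 57.7, 54.3, 54.2 and 56.9 CPM in non-treated replicates 1 to 5, so that NR replicate 1 was the highest mouse for mt-Co2 and the lowest for the copy. The log2 fold change of the copy was 0.20 (SE 0.12, unadjusted p = 0.134). The sum of gene and copy, computed after their values were seen, was 120 ± 12.7 CPM with NR and 102 ± 4.40 CPM without (SD, n = 5 each), and 4 of 5 NR-treated mice were above every non-treated mouse. Of the 7 copies, Gm29216, which matches mt-Co1, was higher at an unadjusted p of 0.05, with a log2 fold change of 0.30 (SE 0.10, unadjusted p = 0.0141, adjusted p = 0.446 by edgeR). The log2 fold change of mt-Co1 itself was 0.12 (SE 0.11, unadjusted p = 0.314), and 0.02 without NR replicate 2.

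The other complex IV and ATP synthase genes within the copied interval did not reach an unadjusted p of 0.05 (edgeR). mt-Co3 was at 36.4 ± 6.69 CPM with NR and 32.7 ± 1.04 without, and mt-Atp6 at 31.7 ± 6.29 and 27.7 ± 1.49 (SD, n = 5 each), with log2 fold changes of 0.15 (SE 0.11) and 0.19 (SE 0.12). In both, NR replicates 2, 4 and 5 were above every non-treated mouse and NR replicate 1 was below every one, and the unadjusted p was 0.00827 for mt-Co3 and 0.0248 for mt-Atp6 without NR replicate 1, beside 0.211 and 0.144 with it. Without NR replicate 2 the log2 fold changes were 0.10 for both, with unadjusted p-values of 0.408 and 0.355. mt-Atp8 had 13 to 37 counts in a library, and its log2 fold change was 0.27 (SE 0.30), and 0.17 without NR replicate 2.

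Among the mitochondrial genes for subunits of complex I, none reached an unadjusted p of 0.05 (edgeR). mt-Nd5 was at 2486, 3996, 2610, 2825 and 2680 CPM in NR replicates 1 to 5 and at 2672, 2457, 2778, 2923 and 2784 CPM in non-treated replicates 1 to 5, with a log2 fold change of 0.10 (SE 0.13). NR replicate 2 was far above the other 9 mice, which overlapped. The log2 fold changes of the others were 0.04 (SE 0.12) for mt-Nd1, 0.03 (SE 0.09) for mt-Nd2, 0.07 (SE 0.17) for mt-Nd3, 0.12 (SE 0.09) for mt-Nd4, -0.02 (SE 0.21) for mt-Nd4l and 0.07 (SE 0.14) for mt-Nd6. Without NR replicate 2 they were 0.06 for mt-Nd4, 0.03 for mt-Nd3 and below 0 for mt-Nd1, mt-Nd2, mt-Nd4l, mt-Nd5 and mt-Nd6. mt-Cytb, the cytochrome b of complex III, was at 5783 ± 805 CPM with NR and 5485 ± 258 CPM without (SD, n = 5 each), with a log2 fold change of 0.08 (SE 0.10), and 0.00 without NR replicate 2.

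The rRNAs differed by less than the spread among the NR-treated mice. mt-Rnr1, of the small ribosomal subunit, was at 393, 518, 414, 368 and 296 CPM in NR replicates 1 to 5 and at 363, 311, 322, 300.5 and 385 CPM in non-treated replicates 1 to 5. NR replicates 1, 2 and 3 were above every non-treated mouse, and NR replicate 5 was below every one. Its log2 fold change was 0.24 (SE 0.13, unadjusted p = 0.0942), and the unadjusted p was 0.0136 without NR replicate 5. Without NR replicate 2 the log2 fold change was 0.14 (unadjusted p = 0.241). mt-Rnr2, of the large subunit, was at 646 ± 154 CPM with NR and 568 ± 54.8 CPM without (SD, n = 5 each), with a log2 fold change of 0.19 (SE 0.15) that was 0.05 without NR replicate 2 (unadjusted p = 0.663).

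**Figure D5:**
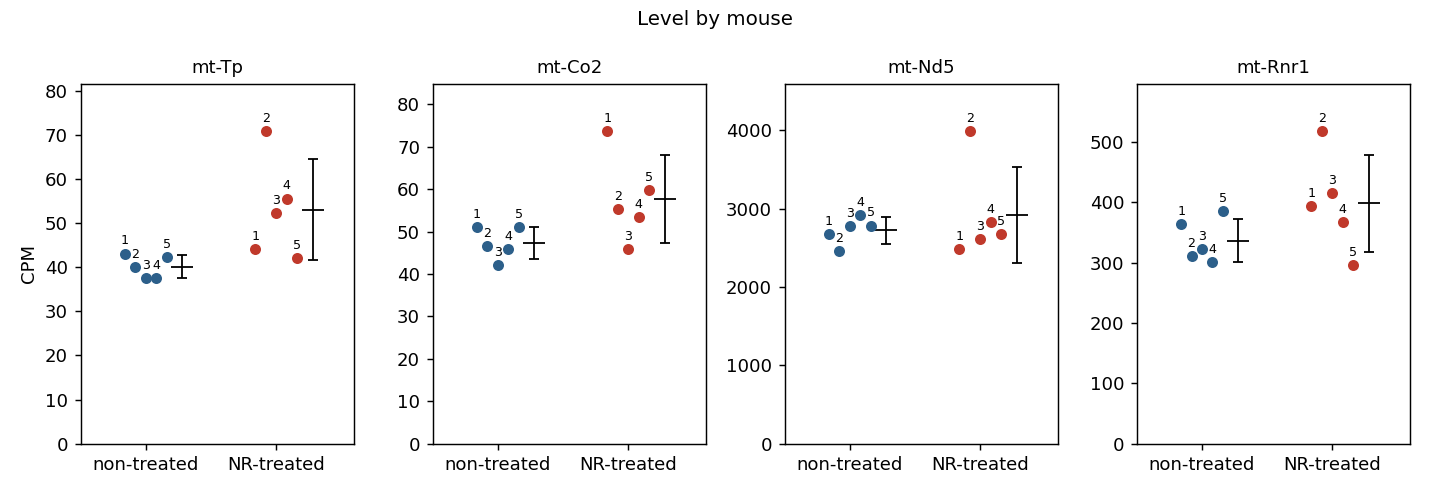
CPM of mt-Tp, mt-Co2, mt-Nd5 and mt-Rnr1 by mouse, with replicate numbers at the points, means as short lines and SD as bars (n = 5 each). For mt-Tp and mt-Co2, 4 of 5 NR-treated mice are above every non-treated mouse, while for mt-Nd5 NR replicate 2 alone is.

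The 22 tRNA genes, of 59 to 75 bases each, were counted very unequally. Only 8 had a mean of 10 or more counts in a library, 5 of them on the minus strand, which holds 8 tRNA genes in all, and 3 on the plus strand, which holds 14. The other 14 had at most 17 counts in any library, and 3 (mt-Td, mt-Tk and mt-Tt) were at 0 in every library. A count of 0 allows a level of up to 0.173 CPM in the smallest library (3 counts, counting error only). It does not show that the tRNA was absent, since mature tRNAs lack poly(A) tails and are shorter than the usual library fragment. The 8 minus-strand tRNA genes held 91.8% to 95.8% of the tRNA counts of a library.

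The 4 tRNA genes with the most counts were mt-Tp (729 to 1589 counts in a library), mt-Tc (134 to 370), mt-Tn (136 to 350) and mt-Te (46 to 130), all on the minus strand. They carry proline, cysteine, asparagine and glutamate. What they share is free sequence beside them: mt-Tp has no annotated gene on its right, mt-Tn and mt-Tc flank a gap of 32 bases, and mt-Te has a gap of 5 bases before mt-Cytb, whereas the other neighbours overlap or lie 0 to 3 bases apart. mt-Tt, which touches mt-Cytb on its left and mt-Tp on its right, had 0 counts. The position does not hold for all, since mt-Tf, on the plus strand at the other end of the control region, also has no annotated gene on its left and had at most 1 count in a library. The part of the counting rule for reads on several genes in this order was not tested. The sequences of these tRNA genes (mt-Tn chrMT:5089-5159, mt-Tc chrMT:5192-5257, mt-Te chrMT:14071-14139, mt-Tp as above, all minus strand, GENCODE M21) are shown for orientation, with no base marked:
mt-Tp: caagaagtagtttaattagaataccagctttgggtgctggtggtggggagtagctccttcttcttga
mt-Tc: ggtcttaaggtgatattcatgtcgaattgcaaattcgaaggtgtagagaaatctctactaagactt
mt-Tn: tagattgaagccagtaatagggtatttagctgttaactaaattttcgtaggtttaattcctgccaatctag
mt-Te: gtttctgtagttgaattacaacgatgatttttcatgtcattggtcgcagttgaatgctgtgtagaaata

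Apart from mt-Tp, no tested tRNA gene reached an unadjusted p of 0.05 (edgeR). After Benjamini-Hochberg adjustment no tRNA gene was called, mt-Tp included. mt-Tn was at 10.1 ± 3.30 CPM with NR and 9.71 ± 1.69 CPM without, mt-Tc at 10.4 ± 3.49 and 10.0 ± 2.41, and mt-Te at 3.83 ± 1.26 and 3.48 ± 0.727 (SD, n = 5 each). In all 3, NR replicate 2 was the highest mouse. The plus-strand genes mt-Tl1 and mt-Tl2 for leucine and mt-Tw for tryptophan had means of 41.8, 26.4 and 13.3 counts, and their log2 fold changes were -0.04 (SE 0.27), 0.30 (SE 0.33) and -0.24 (SE 0.30). mt-Ty for tyrosine, on the minus strand, had 7 to 33 counts and a log2 fold change of 0.02 (SE 0.35).

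Ratios of neighbouring or paired genes do not depend on library size. The 3 overlapping pairs among them are shown because a read on the overlap is ambiguous. Capitals mark the overlap of 43 bases between mt-Atp8 and mt-Atp6 and that of 7 bases between mt-Nd4l and mt-Nd4, each pair lying on 1 mRNA, and that of 14 bases between mt-Nd5 and mt-Nd6, which lie on opposite strands:
mt-Atp8 end: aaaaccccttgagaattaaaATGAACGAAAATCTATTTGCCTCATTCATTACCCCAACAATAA
mt-Atp6 start: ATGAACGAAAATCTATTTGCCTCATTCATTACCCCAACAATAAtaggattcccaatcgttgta
mt-Nd4l end: caaaatctcaacctactacaATGCTAA
mt-Nd4 start: ATGCTAAaaattattcttccctcacta
mt-Nd5 end: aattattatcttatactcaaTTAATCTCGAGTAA
mt-Nd6 end: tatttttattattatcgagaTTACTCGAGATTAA
The coordinates are, in this order, chrMT:7907-7969, chrMT:7927-7989, chrMT:10147-10173, chrMT:10167-10193 and chrMT:13532-13565 on the plus strand and chrMT:13552-13585 on the minus strand.

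The ratio of mt-Rnr2 to mt-Rnr1 counts was 1.5, 1.72, 1.6, 1.65 and 1.6 in NR replicates 1 to 5 and 1.66, 1.63, 1.79, 1.72 and 1.65 in non-treated replicates 1 to 5. NR replicates 1, 3 and 5 were below every non-treated mouse. The means were 1.62 ± 0.0806 and 1.69 ± 0.0687 (SD, n = 5 each), and the difference did not pass an exact two-sided permutation test on the log2 ratio (p = 0.143, adjusted p = 0.714 over 5 ratios). With 5 against 5 mice the smallest p this test can give is 0.00794.

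The other 4 ratios did not pass the test either, each with an adjusted p of 0.849 in the exact permutation test. mt-Nd6 to mt-Nd5, genes annotated on opposite strands, was 0.318 ± 0.0416 with NR and 0.325 ± 0.0376 without (SD, n = 5 each). Since the counting did not use strand, this ratio cannot compare RNA of one strand with RNA of the other. mt-Atp6 to mt-Atp8 was 26.2 ± 7.44 and 27.2 ± 7.79, and mt-Nd4 to mt-Nd4l 628 ± 162 and 556 ± 96.8. These large ratios between genes of 1 mRNA involve genes of the copied interval, and mt-Atp8 and mt-Nd4l are counted at 13 to 37 and 71 to 133 reads. mt-Cytb to mt-Nd1, the last and the first protein gene on the plus strand, was 1.38 ± 0.0683 and 1.33 ± 0.0846.

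The respiratory complexes are built from mitochondrial and nuclear gene products. The summed counts of the 13 mitochondrial protein genes were 2.21, 2.98, 2.29, 2.33 and 2.17 times those of the nuclear genes of oxidative phosphorylation in NR replicates 1 to 5, and 2.48, 2.10, 2.32, 2.43 and 2.22 times in non-treated replicates 1 to 5. NR replicate 2 was the highest and the other 9 mice overlapped. On the log2 scale the group means differed by 0.04, and by -0.04 without NR replicate 2.

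Of the 71 nuclear genes of oxidative phosphorylation tested, 1 was higher and 0 were lower at an unadjusted p of 0.05 (edgeR), below the 4.83% and 4.88% of all genes tested. It was Ndufa8, an accessory subunit of complex I, at 103 ± 4.84 CPM with NR and 94.96 ± 4.90 CPM without (SD, n = 5 each), with a log2 fold change of 0.11 (SE 0.05, unadjusted p = 0.0452, adjusted p = 0.505). This call was lost without NR replicate 3 or 5 or non-treated replicate 3 or 4 (unadjusted p up to 0.0995). The log2 fold change was above 0 for 53 of the 71, with a median of 0.03, beside 8640 of all 18329 genes tested, with a median of -0.01. These genes also share their libraries and are not independent of each other. Atp5b and Atp5a1, the catalytic core of the ATP synthase, and Cox4i1 of complex IV had log2 fold changes of 0.06 (SE 0.07), 0.02 (SE 0.07) and 0.05 (SE 0.07).

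The genes that transcribe the mitochondrial genome, process its RNA and maintain its DNA were called no more often than genes in general, and 0 of them passed the adjusted threshold (edgeR). At an unadjusted p of 0.05, 4.83% of all genes tested were higher and 4.88% lower, beside 1 higher and 1 lower among the 77 tested genes of these lists. Of 12 transcription genes tested, 1 was higher and 0 lower, beside 4.83% and 4.88% of all genes tested, and the median log2 fold change was 0.02. The higher gene was Mterf4, a factor of the mitochondrial terminator family needed for ribosome assembly, at 13.5 ± 0.648 CPM with NR and 12.0 ± 0.446 CPM without (SD, n = 5 each), with a log2 fold change of 0.18 (SE 0.07, unadjusted p = 0.0338, adjusted p = 0.483 by edgeR). The log2 fold changes of Polrmt, the mitochondrial RNA polymerase, Tfam, which packages mitochondrial DNA and starts transcription, and Mrpl12, a ribosomal protein that binds the polymerase, were 0.04 (SE 0.08), -0.06 (SE 0.06) and -0.03 (SE 0.07).

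Of 44 RNA processing genes tested, 0 were higher and 1 was lower, below the 4.88% of all genes tested that were lower, and the median log2 fold change was 0.00. The lower gene was Qtrt2, a subunit of the enzyme that puts queuine into tRNAs, at 19.998 ± 1.24 CPM with NR and 22.8 ± 2.01 CPM without (SD, n = 5 each), with a log2 fold change of -0.19 (SE 0.08, unadjusted p = 0.0348, adjusted p = 0.485 by edgeR). Fastk, Dhx30 and Grsf1, RNA-binding proteins that act on mitochondrial RNA, had log2 fold changes of 0.03 (SE 0.04), 0.04 (SE 0.04) and -0.02 (SE 0.06). Of 23 genes of mitochondrial DNA maintenance, 0 were higher and 0 lower at an unadjusted p of 0.05 (edgeR). Slc25a4, the ADP/ATP carrier, Slc25a36, a pyrimidine nucleotide carrier, and Polg, the mitochondrial DNA polymerase, had log2 fold changes of 0.03 (SE 0.07), 0.00 (SE 0.06) and -0.08 (SE 0.06). The calls of Mterf4 and Qtrt2 were both lost when all genes with a read were tested. When single mice were left out, the call of Mterf4 was lost in 5 of 10 fits (NR replicates 1, 3 and 4 and non-treated replicates 1 and 4, unadjusted p up to 0.0698) and that of Qtrt2 in 7 of 10 (all but NR replicate 2 and non-treated replicates 1 and 5, unadjusted p up to 0.110).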

How the data were processed

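RNA of the cochlea of 5 NR-treated and 5 non-treated mice was sequenced after poly(A) selection. Per the submitters' processing notes and the study's methods, the authors cleaned reads with fastp, aligned them to mm10 with STAR 2.6.1d and counted them per gene with featureCounts 1.5.0 in default mode, without strand. The deposited values are raw counts per gene. Counts of all 54532 genes were joined by gene ID, and genes were filtered by filterByExpr. The groups were compared with edgeR 4.0.16 (TMM, quasi-likelihood test, Benjamini-Hochberg adjustment) in R 4.3.3, with no covariate. DESeq2 1.42.0 was an alternative, the threshold was 0.05, and the fit was tested on simulated data. CPM used TMM effective library sizes, shares used total counts, and CPM per kb divides by the gene length in the files. P-values were two-sided. Each library is 1 mouse per the study's methods, with no batch labelled. Copies were aligned to the mitochondrial genes with Biopython 1.88 (local alignment, extended without gaps to the first base of the copy).

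Named were all protein and rRNA genes, tRNA genes with a mean of at least 10 counts and, of the pathway lists, the members at an unadjusted p of 0.05 and the 3 with the highest mean CPM. Members and lists were chosen with earlier results of these data known. Of 45 RNA processing symbols 44 were found, and a second row of Atp5o was at 0. Counting noise is small for protein and rRNA genes outside the copied interval, which had at least 5125 counts in a library, and large for most tRNA genes.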

Additional observations from a re-analysis of the deposited data

Results flagged for a closer look

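In groups of 5 mice, a value was singled out when its gap to the nearest mouse exceeded 0.71 of the group's range, Dixon's limit, which chance alone passes in about 1 of 20 groups. Of 114 groups checked, 6 were singled out. NR replicate 2 was the highest of the NR-treated mice for mt-Nd5 (3996 CPM, others 2486 to 2825), for mt-Tc (16.5 CPM, others 7.75 to 9.64) and for the log2 ratio of mitochondrial to nuclear mRNAs of oxidative phosphorylation (1.57, others 1.12 to 1.22). NR replicate 5 was the lowest for mt-Tw (0.231 CPM, that is 4 counts, others 0.605 to 0.654 CPM) and the highest for Polrmt (50.7 CPM, others 40.7 to 43.1). Non-treated replicate 1 was the highest of its group for Gm28438, the nuclear copy of mt-Nd3 (24.5 CPM, others 16.6 to 18.8).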

How the results depend on the processing

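The count of mitochondrial genes higher at an unadjusted p of 0.05 was 2 under each of 5 other settings (DESeq2 size factors, library sizes without mitochondrial genes, all genes with at least 1 read, the replicate block and the DESeq2 Wald test) and 1 to 3 when single mice were left out, falling to 1 without non-treated replicate 3 or 4. The number lower, and the number at an adjusted p of 0.05, was 0 throughout. The share difference was 0.240 to 0.255 percentage points under other denominators or with the copies added, and 0.0424 to 0.347 when single mice were left out. The number of the 24 tested genes with a log2 fold change above 0 was 21, and 13 without NR replicate 2. Of 23 named genes, 12 kept the direction of their fold change in all 15 fits. Those that turned did so only when a mouse was left out, with log2 fold changes of -0.22 to 0.12 (mt-Tl1), -0.059 to 0.11 (mt-Nd1), -0.038 to 0.094 (mt-Nd2), -0.14 to 0.15 (mt-Tn), -0.17 to 0.15 (mt-Tc), -0.24 to 0.29 (mt-Ty), -0.0079 to 0.15 (mt-Nd3), -0.14 to 0.10 (mt-Nd4l), -0.031 to 0.16 (mt-Nd5), -0.041 to 0.18 (mt-Nd6) and -0.046 to 0.26 (mt-Te). Likewise, log2 differences ran from -0.089 to -0.039 for mt-Rnr2 to mt-Rnr1 (exact permutation p = 0.0476 without NR replicate 2), from -0.075 to 0.052 for mt-Nd6 to mt-Nd5, from -0.20 to 0.077 for mt-Atp6 to mt-Atp8, from 0.05 to 0.33 for mt-Nd4 to mt-Nd4l, from 0.01 to 0.07 for mt-Cytb to mt-Nd1 and from -0.04 to 0.08 for mitochondrial to nuclear mRNAs. Of the transcription, RNA processing and DNA maintenance genes, 1 was higher and 1 lower. These counts became 2 and 1 with DESeq2 size factors, 4 and 1 with library sizes without mitochondrial genes, 0 and 0 with all genes tested, 0 and 0 with the replicate block and 2 and 2 with DESeq2, and 0 to 4 and 0 to 2 when single mice were left out. The cause of these changes was not tested. Deviations of mice of the same replicate number had correlations of -0.220 to 0.170, and so few mice cannot decide whether the numbers pair them. The main fit did not treat them as pairs, and the replicate block changed no call of a mitochondrial gene or ratio. Depth limits the tRNA genes with few counts and mt-Atp8, which had 13 to 37 counts in a library.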
